A study of Mus musculus with 106 samples.

Results

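The ileum, the last segment of the small intestine, was compared between male C57BL/6J wild type mice kept at 34 °C and mice kept at room temperature, 22 °C, for 4 weeks from the age of 8 weeks. The comparison rested on 6 RNA libraries of the 106 samples in the series, 3 per temperature, and every library was made from a pool of 2 of the 6 mice of its group. All mice of this experiment were housed 2 per cage without nesting material, and no group carried a transgene or a drug. Ileum from a separate experiment at 10 °C, with its own 22 °C group, and liver, brain and brown fat of the 34 °C experiment served for comparison. The mice of the 10 °C experiment were also male C57BL/6J obtained at 8 weeks. By the labels both of its groups were younger at sampling than those of the 34 °C experiment. Its cold group was cooled in steps before 10 °C and exposed for a shorter time. Pools are named by temperature and by the number of their column, which the labels do not tie to particular mice or to a pool of the other temperature, so p-values measure the spread between pools of unstated cages.

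The ileum takes up what the upper intestine leaves and returns bile acids to the liver. Its enterocytes carry a bile acid transporter at the brush border and sense bile acids through the receptor FXR, which drives the hormone Fgf15. Enterocyte genes change along the intestine: GATA4 keeps proximal genes such as lactase active and ileal genes silent in the upper part, and is normally low in the ileum. The ileum also holds Peyer's patches, lymphoid follicles of B cells with germinal centres, a stroma that attracts B cells, and a covering epithelium of M cells that pass bacteria to the follicle. A piece of ileum may include such a patch or miss it, and in bulk RNA fewer cells of a type and less RNA per cell cannot be told apart.

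The libraries held 41186780 to 52402604 counted reads and 16949 to 17142 detected genes, and the most abundant gene, Anpep, a brush border peptidase, took 1.41 to 1.78% of the counts. Levels below are counts scaled to the library total (CPM), fold changes are log2 ratios of 34 °C over 22 °C from edgeR's quasi-likelihood fit with its standard error (SE), and a gene is said to be called, to have risen or to have fallen where its p before adjustment did not exceed 0.05 and its fold was above 1.5, the limits the study used. The ileum label was borne out by Fabp6, the ileal bile acid binding protein, which stood at 11700, 10300 and 7070 CPM in pools 1, 2 and 3 at 22 °C and at 8670, 5200 and 11000 CPM at 34 °C. Slc10a2, the apical bile acid transporter, stood at 425, 512 and 503 CPM at 22 °C and at 360, 150 and 572 CPM at 34 °C. Both were lowest in pool 2 at 34 °C, and both groups overlapped. The duodenal marker Pdx1 was at most 0.19 CPM in every library, and summed pancreatic acinar markers stayed between 5.05 and 6.91 CPM.

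Promoter sequence is shown for Lct, the gene of lactase, because it had a large fold change that turned on 1 pool. It is also shown for Areg, the gene of the growth factor amphiregulin, which was called lower whichever pool was left out. Both are the 250 bases before the RefSeq transcription start on GRCm38.p6, read 5′ to 3′ on the strand of the gene. For Lct the stretch is chr1:128328319-128328568 on the minus strand, and the capitals mark both matches to the motif AGATAA of the GATA factors, searched on both strands (TTATCT is its form on the other strand). For Areg it is chr5:91139349-91139598 on the plus strand, and the capitals mark the match to TGACGTCA, the cyclic AMP response element, whose reverse is itself.
Lct: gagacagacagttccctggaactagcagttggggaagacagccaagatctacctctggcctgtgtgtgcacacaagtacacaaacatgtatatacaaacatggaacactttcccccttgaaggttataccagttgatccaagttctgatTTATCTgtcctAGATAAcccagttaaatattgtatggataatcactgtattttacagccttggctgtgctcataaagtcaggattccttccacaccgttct
Areg: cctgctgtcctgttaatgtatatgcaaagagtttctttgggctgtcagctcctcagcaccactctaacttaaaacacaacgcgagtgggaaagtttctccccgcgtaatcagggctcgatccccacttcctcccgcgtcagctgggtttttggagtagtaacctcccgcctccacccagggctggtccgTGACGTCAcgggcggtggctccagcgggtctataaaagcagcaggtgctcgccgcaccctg
The Lct matches began 101 and 90 bases before the start, and the Areg match 61 bases before it. Of 27025 promoters of the same length, 2771 (10.3%) held AGATAA and 439 (1.62%) held TGACGTCA. Among 15 immediate early genes with a promoter 2 held TGACGTCA, and among 5 proximal intestinal genes 1, Lct itself, held AGATAA. These matches describe the letters and say nothing of binding.

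The ileum pools differed widely in cell type markers, also within a temperature. The summed level of 13 B cell markers was 448, 107 and 649 CPM in pools 1, 2 and 3 at 22 °C and 293, 7.91 and 10.2 CPM at 34 °C. Pool 1 at 34 °C thus lay inside the range of the 22 °C pools, while pools 2 and 3 at 34 °C were almost without B cell RNA. The 22 °C pools themselves spanned a wide range, with pool 2 the lowest. Follicular stroma markers, among them Cxcl13, the chemokine that draws B cells into follicles, summed to 439, 150 and 530 CPM at 22 °C and to 267, 53.2 and 49.4 CPM at 34 °C, in the same order of pools as the B cell markers at 22 °C. T cell markers varied less, with 159, 66.9 and 164 CPM at 22 °C and 110, 74.4 and 59.2 CPM at 34 °C, and their groups overlapped. The 6 ileum libraries of the 10 °C experiment also varied in B cell markers, with 28.9, 217 and 548 CPM at 22 °C and 24.3, 121 and 357 CPM at 10 °C.

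Markers of the proximal small intestine set another pool apart. Their sum was 69.8, 74.5 and 88 CPM at 22 °C and 67.9, 1940 and 137 CPM at 34 °C, so that pool 2 at 34 °C was high and pool 1 at 34 °C was the lowest of all. Distal markers ran the other way in that pool, with 23300, 22600 and 17900 CPM at 22 °C and 18800, 11500 and 22600 CPM at 34 °C. Absorptive enterocyte markers summed to 44200, 43900 and 38300 CPM at 22 °C and to 37800, 62600 and 60300 CPM at 34 °C, and again pool 1 at 34 °C lay with, here just under, the 22 °C pools. Whether the pieces of ileum were taken at different distances from the colon, or with and without a patch, is not stated in the labels and cannot be told apart from the temperature in these 6 libraries.

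**Figure D1:**
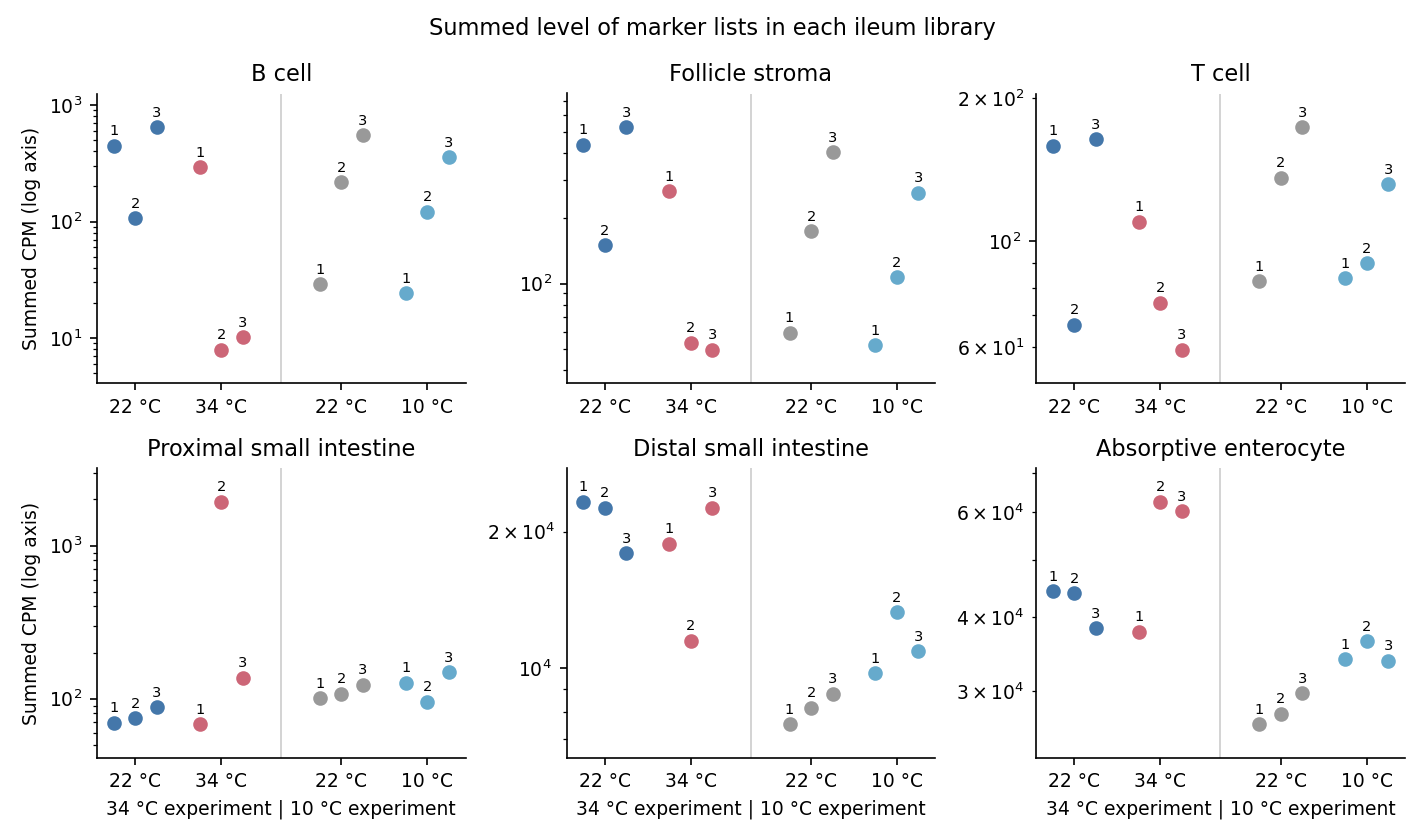
Summed CPM (log axis) of 6 marker lists in each ileum library, with the 34 °C experiment left and the 10 °C experiment right of the grey line in every panel; points are single libraries and carry their number. B cell markers were at 293 CPM in pool 1 at 34 °C against 7.91 and 10.2 CPM in pools 2 and 3, and proximal markers reached 1940 CPM in pool 2 at 34 °C.

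Across all genes, 204 of the 13023 tested (1.57%) were called higher at 34 °C and 164 (1.26%) lower. No gene passed an adjusted p of 0.05 in edgeR's quasi-likelihood test, where the lowest adjusted p was 0.594 and 1011 genes had an unadjusted p of at most 0.05. By the same adjusted limit edgeR's exact test called 5 genes (Zfp354a higher, and Gp2, Ifrd1, Phlda1 and Plk3 lower), DESeq2 24 and limma voom with sample quality weights 0. The pools of 1 temperature all lay above those of the other in 1802 genes (13.8%), and of the called genes 123 of the higher and 91 of the lower had such groups. With 3 pools against 3 an exact permutation test cannot go below a two-sided p of 0.1, so none is given for single genes.

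Leaving out pool 1 at 34 °C raised these counts the most. Without it 437 genes were called higher (3.36%) and 659 lower (5.06%), 1096 in all against 368 with every pool, and 2253 genes had an unadjusted p of at most 0.05. No gene passed an adjusted p of 0.05 without it either, where the lowest was 0.17. Of the 368 genes called with every pool, 329 (89.4%) were still called without pool 1 at 34 °C, and they made up 30% of the 1096, the other 767 being gained by leaving it out. Leaving out pool 2 at 34 °C had the opposite effect, with 63 genes higher (0.484%) and 67 lower (0.515%), of which 103 were shared (28% of the 368 and 79.2% of the 130). This was the smallest share of the 368 kept by any fit that left out 1 pool. Leaving out pool 2 at 22 °C left the higher count at 225 (1.72%) but raised the lower count to 581 (4.45%), and 253 genes were shared (68.8% of the 368 and 31.4% of the 806). Without pool 1 at 22 °C 119 genes were higher (0.915%) and 80 lower (0.615%), without pool 3 at 22 °C 87 (0.668%) and 64 (0.491%), and without pool 3 at 34 °C 161 (1.23%) and 105 (0.804%).

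**Figure D2:**
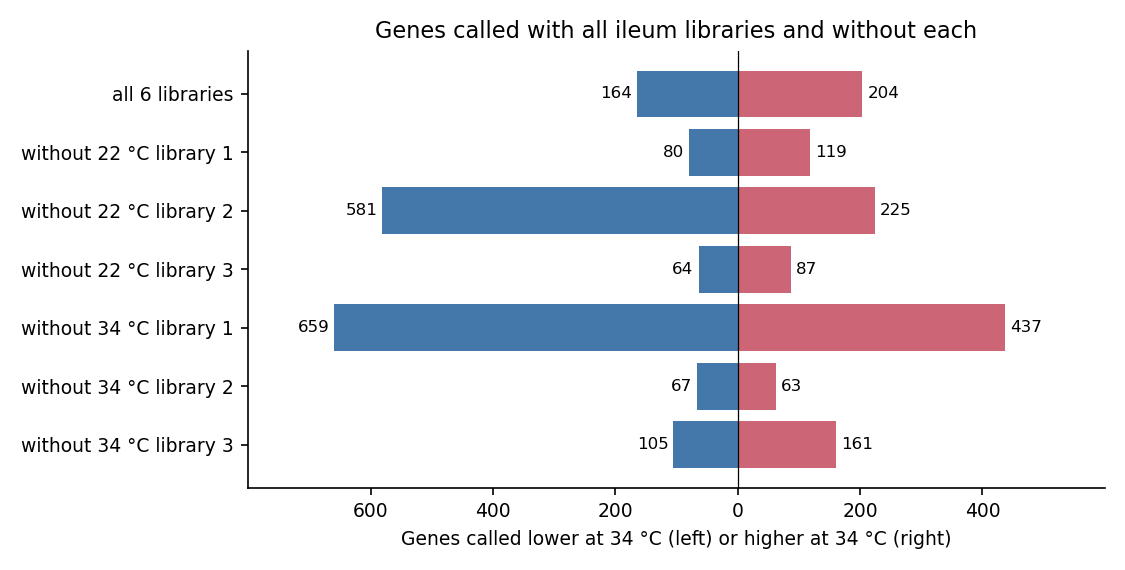
Number of genes called lower (bars to the left) and higher (bars to the right) at 34 °C with all 6 ileum libraries and without each library in turn, by the limits on p and fold. The counts ran from 63 higher and 67 lower without 34 °C library 2 to 437 higher and 659 lower without 34 °C library 1.

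Pool 1 at 34 °C lay with the 22 °C pools in most of the genes that separated the others. Its log2 CPM correlated across genes at 0.988, 0.988 and 0.986 with pools 1, 2 and 3 at 22 °C, and at 0.956 and 0.973 with pools 2 and 3 of its own temperature. Genes are not independent replicates, and these values describe the libraries. On the first principal component, which held 66.3% of the variance, it stood at −18.5, between the 22 °C pools at −26, 3.45 and −46.1, while pools 2 and 3 at 34 °C stood at 52.9 and 34.3. Among 1093 genes called without it and measured in it, its position on a scale from 0 (the mean of the 22 °C pools) to 1 (the mean of the other 34 °C pools) had a median of 0.12. It was nearer to its own temperature in 11.4% of those genes and inside the range of the 22 °C pools in 68.9%. These genes were chosen by the fit that left it out, and 767 of the 1096 calls were gained that way. That choice by itself favours a low position, so the median and both shares are no independent evidence. A library that carries the wrong label and a piece of ileum with other cell content cannot be told apart from the files and labels, so the values below are given with and without this pool where it changed a call. The sample quality weights of limma voom were 0.805 for pool 1, 0.543 for pool 2 and 1.76 for pool 3 at 34 °C, and 1.02 to 1.16 at 22 °C.

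The other libraries were placed in the same way by the fits that left them out. For each pool 0 was the mean of the other temperature and 1 the mean of the remaining pools of its own temperature. Pool 2 at 22 °C had a median position of 0.15 and was nearer to its own temperature in 18.8% of 793 genes. Over the genes called lower its median was 0.08. Of the 806 genes called without this pool 553 were gained by leaving it out, which favours a low position. The remaining pools had medians of 0.62 and 0.92 for pools 1 and 3 at 22 °C and of 1.03 and 0.65 for pools 2 and 3 at 34 °C. Each pool was placed over a gene set of its own, of 130 to 1093 genes, so these positions cannot be ranked across pools. Pool 1 at 34 °C was unremarkable by another measure: it lay over 2-fold above all other pools in 1 gene and over 2-fold below them in 6, against 128 and 75 genes for pool 2 at 34 °C and 9 and 112 for pool 3 at 22 °C. The genes furthest above the other pools in pool 1 at 34 °C included Shisa2, at 25.3, 28.1 and 20.6 CPM at 22 °C and 60.8, 13.6 and 27.7 CPM at 34 °C, and Ypel2, at 26.9, 23.7 and 26.6 CPM against 50, 22.8 and 19.8 CPM. The genes furthest below included Orm1, an acute phase protein, at 3.47, 1.8 and 0.611 CPM at 22 °C and 0.159, 2.14 and 0.911 CPM at 34 °C.

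**Figure D3:**
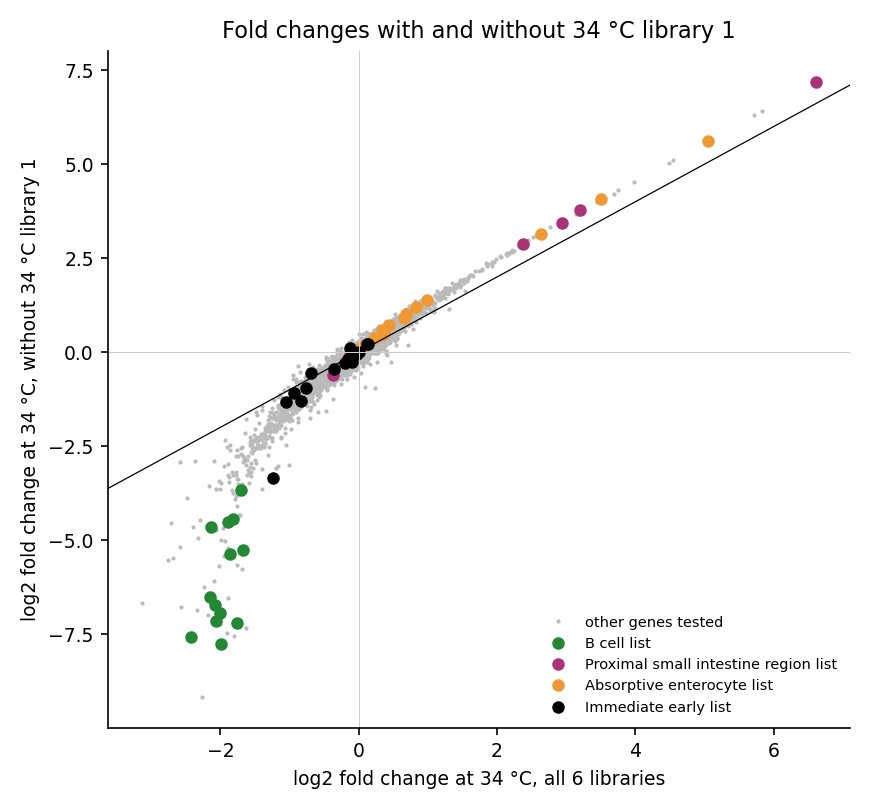
log2 fold change at 34 °C of every gene tested with all 6 ileum libraries (horizontal axis) and without 34 °C library 1 (vertical axis), with 4 gene lists in colour and the line of equal values. B cell genes lie far under the line, with a median of −1.99 with the library and −6.52 without it, and proximal genes above it, with medians of 2.66 and 3.17.

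A smaller set of genes kept its call whichever pool was left out. Of 13023 tested, 29 were called higher and 29 lower with every pool and in the 6 fits that left 1 out. These fits reuse the same libraries, so keeping a call is no independent support. With every pool none of these genes had an adjusted p under 0.594 in edgeR's quasi-likelihood test. Zfp354a, a zinc finger protein gene (chr11:51059257-51072799, plus strand, GRCm38), had the lowest p of all genes. It stood at 0.879, 0.862 and 0.916 CPM at 22 °C (mean 0.886 ± 0.0276, SD, n = 3) and at 2.23, 2.83 and 2.67 CPM at 34 °C (2.58 ± 0.315), a log2 fold change of 1.54 (SE 0.218). All 34 °C pools, pool 1 included, were above all 22 °C pools. Il18, an epithelial cytokine, rose from 14.5, 13.6 and 16.3 CPM to 22.5, 46.3 and 33 CPM (log2 1.20, SE 0.252). Mptx2, a pentraxin of Paneth cells, rose from 115, 163 and 99.4 CPM to 227, 191 and 282 CPM (log2 0.89, SE 0.22). In both genes pool 1 at 34 °C lay above every 22 °C pool. Edn1, the vasoconstrictor endothelin, was highest in pool 1 itself, at 1.69, 2.23 and 1.46 CPM at 22 °C and 5.36, 3.14 and 4.84 CPM at 34 °C (log2 1.31, SE 0.278). Edn1 was named after its values were seen.

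Among the 29 genes that fell in every fit were kinases, transcription factors and signalling genes. Plk3, a stress responsive kinase, went from 34.3, 49.4 and 34.8 CPM to 17, 14.3 and 22.4 CPM (log2 −1.14, SE 0.213). Phlda1, induced by growth factor signalling, went from 20.4, 41.1 and 43.2 CPM to 13.5, 14.7 and 11.3 CPM (log2 −1.40, SE 0.287). Atf3, a stress induced transcription factor, went from 41.4, 45.2 and 66.8 CPM to 32.3, 26.4 and 21.6 CPM (log2 −0.93, SE 0.223). In all 3 genes the groups did not overlap. Areg, the EGF receptor ligand whose promoter is shown above, went from 9.41, 17.6 and 18.6 CPM to 7.52, 7.67 and 5.75 CPM (SE of the log2 change 0.277). Its group at 34 °C was tight and pool 1 lay with the other pools of its temperature. Errfi1, a feedback inhibitor of the EGF receptor, went from 64.8, 107 and 121 CPM to 53.7, 63.9 and 53.8 CPM (log2 −0.77, SE 0.225), and Maff, a small bZIP factor, from 31, 29.1 and 39.1 CPM to 21.8, 18.8 and 17.6 CPM (log2 −0.77, SE 0.144).

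Enzymes and receptors also stood among the 29 genes that fell. Hk2, a hexokinase of the first step of glycolysis, went from 144, 110 and 161 CPM to 89.6, 43.7 and 76.2 CPM (log2 −0.99, SE 0.275). Upp1, a uridine phosphorylase, went from 422, 179 and 296 CPM to 135, 112 and 138 CPM (log2 −1.22, SE 0.294). Ptger4, a prostaglandin E receptor, went from 75.6, 80 and 98 CPM to 63.8, 37.6 and 37.1 CPM (log2 −0.87, SE 0.232). Pool 1 at 34 °C was the closest of its group to the 22 °C pools in Hk2 and Ptger4, but not in Upp1. Gp2, the M cell receptor for bacteria (chr7:119442537-119459285, minus strand, GRCm38), stood at 3.18, 1.36 and 3.95 CPM at 22 °C and at 0.681, 0.436 and 0.304 CPM at 34 °C (log2 −2.58, SE 0.497). Pool 1, where B cell markers were at 293 CPM, had the highest Gp2 of the 34 °C pools. Pool 2, lowest in B cell markers at 22 °C, had the lowest Gp2 of the 22 °C pools. The part of follicle content in the Gp2 difference was not tested. The tight junction gene Cldn4, the adhesion receptor Cd44, the receptor Notch2 and the cytokine signalling inhibitor Socs1 were also among the 29. Plk3, Maff, Errfi1, Hk2, Upp1, Cldn4, Cd44, Notch2 and Socs1 were named after their values were seen, from the genes called in every fit.

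**Figure D4:**
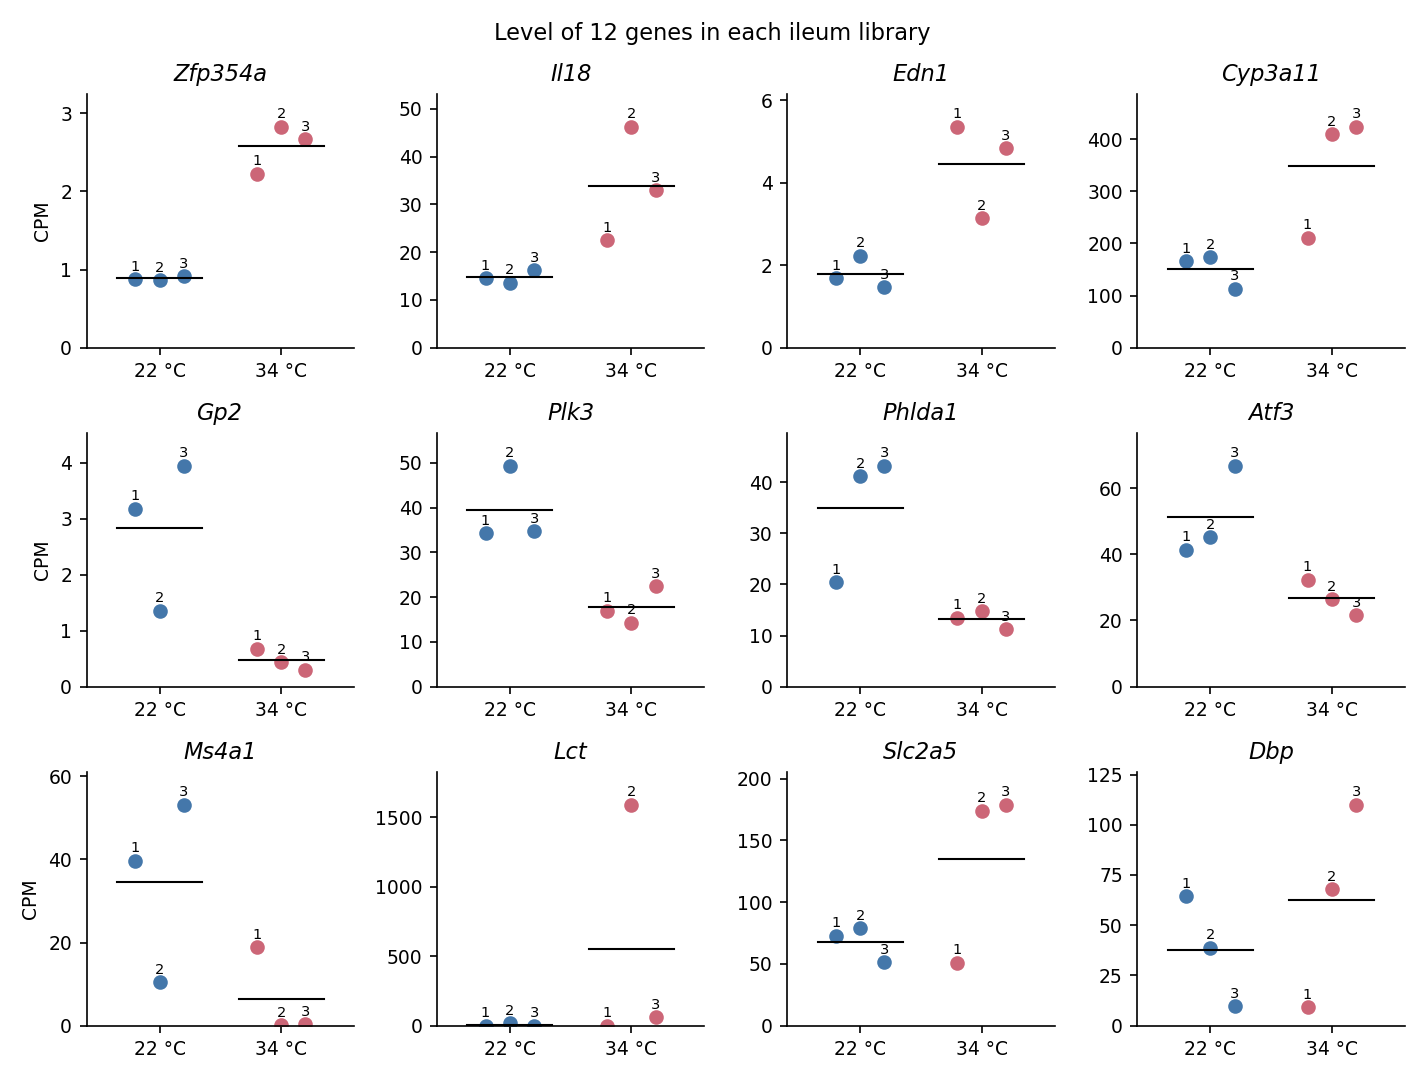
CPM of 12 genes in each ileum library at 22 °C (blue) and 34 °C (red); points are single libraries with their number, and the black line is the mean of 3. Zfp354a, Gp2 and Phlda1 separate by temperature in all pools, whereas 34 °C library 1 lies with the 22 °C libraries in Ms4a1 (18.9 CPM), Lct (0.954 CPM) and Slc2a5 (51 CPM).

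B cell genes were near 0 in pools 2 and 3 at 34 °C, and whether they were called depended on pool 1. None of 13 B cell genes was called with every pool (median log2 −1.99, against 0.01 over all genes), and all 13 were called lower without pool 1 at 34 °C (median −6.52). The shares of all genes called lower in these fits were 1.26% and 5.06%, and 0.515% without pool 2 at 34 °C. Ms4a1, the CD20 gene, stood at 39.7, 10.5 and 53.2 CPM at 22 °C and at 18.9, 0.0436 and 0.304 CPM at 34 °C, a log2 change of −2.43 that became −7.58 without pool 1. Pool 1 at 34 °C lay inside the 22 °C range. Germinal centre genes were closer to a call: 5 of 9 fell with every pool (Mybl1, Mef2b, S1pr2 and Basp1 among them, median −1.68), 7 without pool 1 at 34 °C (median −2.53) and 1 without pool 2 at 34 °C. Mybl1, a germinal centre transcription factor, stood at 5.16, 1.92 and 5.61 CPM at 22 °C and at 1.73, 0.262 and 0.304 CPM at 34 °C (log2 −2.47, SE 0.799). The gap between pool 1 at 34 °C and pool 2 at 22 °C, the nearest pools of the 2 groups, was small, and the groups did not overlap.

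Few other genes of the follicle were called with every pool. Over all genes 1.26% were called lower with every pool, 5.06% without pool 1 at 34 °C and 4.45% without pool 2 at 22 °C. Part of each rise in the counts below is this general rise. Of 7 follicular stroma genes 1 was called lower with every pool, Madcam1, an adhesion molecule of mucosal venules, and 6 of 7 without pool 1 at 34 °C (medians −1.74 and −3.50). Cxcl13 stood at 21.8, 5.2 and 25 CPM at 22 °C and at 13.2, 0.807 and 0.891 CPM at 34 °C and was not called with every pool. Of 8 M cell and follicle epithelium genes 1, Gp2, was called lower with every pool and 5 without pool 1 (medians −0.63 and −1.06). Of 22 genes of B cell receptor signalling 1, the kinase Syk, was called lower with every pool 17 without pool 1 and 9 without pool 2 at 22 °C (medians −0.95, −1.42 and −1.32). Of 13 T cell markers and of 20 T cell receptor signalling genes none was called with every pool. Without pool 1 at 34 °C 6 and 9 were called lower, and without pool 2 at 22 °C, the lowest 22 °C pool in T cell markers, 8 of 13 and 11 of 21. None of 10 markers of intraepithelial and cytotoxic lymphocytes was called in those fits, and their sum was 300, 130 and 174 CPM at 22 °C and 186, 212 and 147 CPM at 34 °C, with overlap. Cd3e, a subunit of the T cell receptor complex, stood at 13.9, 6.27 and 13.6 CPM at 22 °C and at 10.8, 8.81 and 7.39 CPM at 34 °C and was not called in either fit. Of 26 chemokines and receptors 2 were called lower with every pool, Ccl22 and Cxcr3, and 9 without pool 1, and of 11 macrophage markers 2 were called lower, Lyz2 and Cd68. Of 9 plasma cell genes 1 was called higher, Fkbp11, against 1.57% of all genes. The part that the follicle content of the pieces played in these differences was not tested.

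Genes of the proximal intestine were high in pool 2 at 34 °C, and their calls ended without it. Of 6 tested proximal genes 2 were called higher with every pool, 3 without pool 1 at 34 °C and 0 without pool 2 (medians 2.66, 3.17 and −0.10). Shares of all genes called higher were 1.57%, 3.36% and 0.484%. Those called lower were 1.26% with every pool and 0.515% without pool 2 at 34 °C. Lct (chr1:128284756-128328318, minus strand, GRCm38) stood at 0.404, 15.8 and 0.752 CPM at 22 °C and at 0.954, 1590 and 61.8 CPM at 34 °C, a called log2 change with an SE of 2.61, against 2.48 and no call without pool 2 at 34 °C. Pool 1 at 34 °C lay below pool 2 at 22 °C, so the groups overlapped. Gata4 was likewise highest in pools 2 and 3 at 34 °C, with 3.45, 7.76 and 2.96 CPM at 22 °C and 5.61, 84.5 and 18.6 CPM at 34 °C (log2 2.94, SE 0.976), and was not called without pool 2 (log2 1.36). Among distal genes the basolateral bile acid exporter subunit Slc51b fell, from 607, 449 and 459 CPM to 397, 234 and 336 CPM (log2 −0.65, SE 0.217), and its groups did not overlap. It was the 1 called gene of 8 in the distal list and of 13 in the bile acid list, and without pool 2 at 34 °C neither list held a call (medians −0.33 and −0.22 with every pool, −0.07 and −0.04 without it). Fgf15, the ileal hormone under FXR, stood at 112, 118 and 106 CPM at 22 °C and at 63.5, 38 and 138 CPM at 34 °C and was not called.

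Genes that take up and package nutrients followed the same pools. Of 15 absorptive enterocyte genes 2 were called higher with every pool (median 0.66), 10 without pool 1 at 34 °C (median 0.90) and 0 without pool 2 (median 0.34). In the same fits 1.57%, 3.36% and 0.484% of all genes were called higher. Fabp1, a fatty acid binding protein, stood at 8.15, 17.9 and 8.83 CPM at 22 °C and at 11.7, 1120 and 27.5 CPM at 34 °C (log2 5.05, SE 1.75), and its log2 change was 0.76, with no call, without pool 2. Apoa4, a chylomicron protein, stood at 360, 497 and 182 CPM at 22 °C and at 368, 5430 and 693 CPM at 34 °C (log2 2.64, SE 1.02). The high values of both came from pool 2 at 34 °C, and pool 1 lay inside the 22 °C range. Of 24 genes of dietary fat uptake 3 were called higher with every pool and 11 without pool 1, of 24 of sugar transport and brush border hydrolysis 4 and 10, of 16 of amino acid and peptide transport 2 and 4, and of 16 of ion and water transport 2 and 4. In each of these 4 lists no gene was called higher without pool 2 at 34 °C. The calls with every pool were Fabp1, Apoa4 and Apoc3 for fat, Slc2a7, Lct, Pck1 and the peptidase Ace for sugar and brush border, Slc7a8 and Slc36a1 for amino acids, and Aqp3 and Kcnj13 for ions and water. The fructose transporter Slc2a5 was instead high in pools 2 and 3 alike: it stood at 73, 79.2 and 51.2 CPM at 22 °C and at 51, 174 and 179 CPM at 34 °C, with a log2 change of 0.99 that was not called and one of 1.38 that was called without pool 1. Sis, sucrase-isomaltase, was of the same kind, with 1620, 2130 and 1430 CPM at 22 °C and 1300, 2740 and 4280 CPM at 34 °C, and was not called with every pool.

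Some enzymes of drug and lipid oxidation rose, also in the fit without pool 2. Of 33 cytochrome P450 and phase II genes 8 were called higher with every pool, 14 without pool 1 at 34 °C and 6 without pool 2 (medians 0.34, 0.54 and 0.32), and none lower with every pool. The matching shares of all genes called higher were 1.57%, 3.36% and 0.484%. Cyp3a11, the main drug metabolising P450 of the mouse intestine, rose from 166, 173 and 113 CPM to 211, 410 and 424 CPM (log2 1.21, SE 0.297). Cyp4b1, a fatty acid and xenobiotic hydroxylase, rose from 80.9, 102 and 63.1 CPM to 107, 189 and 155 CPM (log2 0.88, SE 0.246). Pool 1 at 34 °C lay above every 22 °C pool in both genes, by a small margin. Cyp2b10, a target of the nuclear receptor CAR, stood at 5.18, 3.64 and 1.93 CPM at 22 °C and at 4.7, 211 and 35.3 CPM at 34 °C (SE of the log2 change 1.31), and there pool 1 lay inside the 22 °C range. Nr1i3, the gene of CAR, rose from 1.95, 2.54 and 1.57 CPM to 3.91, 45.1 and 7.78 CPM (log2 3.23, SE 0.919) with no overlap. All 4 genes were called in every fit that left out 1 pool, but without pool 2 at 34 °C the log2 change was 1.53 for Nr1i3 and 2.48 for Cyp2b10, against 3.23 and 4.54 with it.

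Some retinoid genes rose. Of 16 tested, 4 were called higher with every pool, 6 higher and 1 lower without pool 1 at 34 °C, 0 without pool 2 at 34 °C and 1 without pool 2 at 22 °C. Among all genes 1.57%, 3.36%, 0.484% and 1.72% were called higher in these fits, and 5.06% lower without pool 1 at 34 °C. Rbp2, which carries retinol in enterocytes, stood at 187, 206 and 151 CPM at 22 °C and at 181, 1200 and 310 CPM at 34 °C (log2 1.64, SE 0.665), and pool 1 lay inside the 22 °C range. Lrat, which esterifies retinol, stood at 11.9, 16.3 and 14.5 CPM at 22 °C and at 17.8, 24.3 and 24.4 CPM at 34 °C (log2 0.64, SE 0.174), with no overlap. Cyp26b1, which breaks down retinoic acid, stood at 1.5, 1.17 and 1.2 CPM at 22 °C and at 1.63, 4.6 and 1.86 CPM at 34 °C (log2 1.06, SE 0.436). Its groups did not overlap, but most of the difference came from pool 2 at 34 °C. Adh1, an alcohol dehydrogenase that can oxidise retinol, was the fourth.

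Epithelial defence held few calls with every pool. Over all genes 1.57% were called higher and 1.26% lower with every pool. Without pool 2 at 22 °C these shares were 1.72% and 4.45%, and without pool 1 at 34 °C 3.36% and 5.06%. Of 10 Paneth cell markers Mptx2 was the 1 called higher, and of 20 antimicrobial and defence genes Il18 was the 1 called. Without pool 2 at 22 °C 6 of the 10 Paneth cell markers were called higher (median 0.41 with every pool and 0.61 without it), and of the 20 defence genes 6 were called higher and 2 lower. Without pool 1 at 34 °C 1 Paneth cell marker was called higher and 1 lower, and 2 and 3 of the defence genes. The Paneth cell marker called lower was Defa24, at 26.1, 31.1 and 17.7 CPM at 22 °C and 23.9, 6.69 and 7.72 CPM at 34 °C. In the 22 °C group of the 10 °C experiment Defa24 stood at 4450, 4420 and 4770 CPM. Paneth cell markers summed to 7060, 9050 and 5420 CPM at 22 °C and to 8570, 9380 and 10500 CPM at 34 °C, with overlap. The alpha-defensin genes Defa26, Gm15292 and AY761184, named after their values were seen, were called higher in every fit, but near-identical copies of these genes can share reads and their single values are uncertain. The same limit applies to Defa24, to the other alpha-defensins of the Paneth cell list and to the sum of that list. Interferon stimulated genes had 2 of 29 called lower, and these 2 stayed called without pool 1. Rsad2, an antiviral enzyme, was one, at 16.7, 14.6 and 16.4 CPM at 22 °C and 10.1, 11.1 and 10 CPM at 34 °C (log2 −0.61, SE 0.111). The 34 °C pools were all below the 22 °C pools and close together. Gbp6, a guanylate binding protein, was the other (log2 −0.99, SE 0.305).

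Stress and signalling lists held scattered calls, all lower with every pool. The share of all genes called lower was 1.26% with every pool, 4.45% without pool 2 at 22 °C and 0.515% without pool 2 at 34 °C. Of 19 immediate early genes Atf3 and Klf2 were called lower (median −0.14), and of 21 genes of the unfolded protein and integrated stress responses Atf3 again. Of 17 glucocorticoid and FOXO responsive genes Ddit4, an inhibitor of mTORC1, and Errfi1 were called lower (median −0.12). Of 19 heat shock chaperones 2 were (median −0.15). Hspa1a, the inducible HSP70, stood at 2.23, 11.2 and 6.15 CPM at 22 °C and at 2.5, 1.44 and 2.37 CPM at 34 °C (log2 −1.63, SE 0.561), and pool 1 at 22 °C lay within the 34 °C range. Hsph1, an HSP110 chaperone, stood at 22.7, 69.4 and 51.7 CPM at 22 °C and at 24.6, 24.6 and 22.8 CPM at 34 °C (log2 −1.0, SE 0.364), with the same pool low. Pool 2 at 22 °C was the highest in both genes, and no heat shock gene was called without it (median −0.02) or without pool 2 at 34 °C. In the separate 10 °C experiment, where 1.44% of genes were called higher and 1.26% lower, 7 of the same 19 genes were called higher and none lower (median 0.5), Hspa1a by 1.7 (SE 0.244) and Hsph1 by 1.35 (SE 0.173) on the log2 scale.

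Clock genes set pools apart without a call. Dbp, an output of the clock, stood at 64.4, 38.8 and 9.63 CPM at 22 °C and at 9.26, 68.1 and 110 CPM at 34 °C (log2 0.73, not called). Arntl, the gene of BMAL1, ran opposite, with 26.9, 27.3 and 46.6 CPM at 22 °C and 49.8, 15.8 and 6.91 CPM at 34 °C. Pool 1 at 34 °C and pool 3 at 22 °C were alike in both, with low Dbp and high Arntl. Of 18 clock genes none was called with every pool, and 2 were called higher and 3 lower without pool 1 at 34 °C. That fit called 3.36% of all genes higher and 5.06% lower. The hour at which each pool was taken is not given in the labels, and its part in the other differences was not tested.

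Of 14 enteroendocrine genes 2 were called higher with every pool, 4 without pool 1 at 34 °C, 4 without pool 2 at 22 °C and 0 without pool 2 at 34 °C. For all genes these shares were 1.57%, 3.36%, 1.72% and 0.484%. Ghrl, the ghrelin gene, rose from 1.31, 1.92 and 1.55 CPM to 2.5, 3.92 and 2.15 CPM (log2 0.84, SE 0.3), and Chga, a granule protein, from 17.5, 28.2 and 18.5 CPM to 25.3, 39.8 and 33.4 CPM (log2 0.62, SE 0.236). Only the second pair of groups overlapped. Gcg, the proglucagon gene, stood at 21.4, 24.2 and 22.6 CPM at 22 °C and at 25.7, 24.3 and 26.8 CPM at 34 °C and was not called. No gene was called with every pool among 21 of fatty acid and triglyceride synthesis, 24 of cholesterol synthesis, 23 of the respiratory chain or 25 of the cell cycle, with median log2 changes of −0.10, −0.26, 0.14 and −0.02.

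The study names 10 genes for responses to 34 °C in several tissues, and in ileum 1 was called higher, Cyp26b1, and 1 lower, Slc36a2. The paper includes ileum for all of these genes but Lonrf3 and Tlcd2, and its methods name edgeR's exact test. Most of its ileum responses among them were thus not called here. The list was chosen by the study with these samples and is not independent evidence of a direction. Slc36a2, an amino acid transporter of adipocytes, stood at 4.78, 1.68 and 2.51 CPM at 22 °C and at 1.34, 1.2 and 0.871 CPM at 34 °C (log2 −1.39, SE 0.422, and −0.89 without pool 1 at 22 °C), and was called in every fit. Adipocyte markers summed to 298, 203 and 83.8 CPM at 22 °C and to 155, 470 and 371 CPM at 34 °C, so their sum did not fall with it, and of the 11 adipocyte genes Slc36a2 was called lower and Pck1, which enterocytes also express, higher. Scd1, a fatty acid desaturase, stood at 774, 341 and 149 CPM at 22 °C and at 99, 378 and 178 CPM at 34 °C (log2 −0.95). Its groups overlapped widely. Zbtb16, a zinc finger repressor, had a log2 change of 1.25 and was not called.

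**Figure D5:**
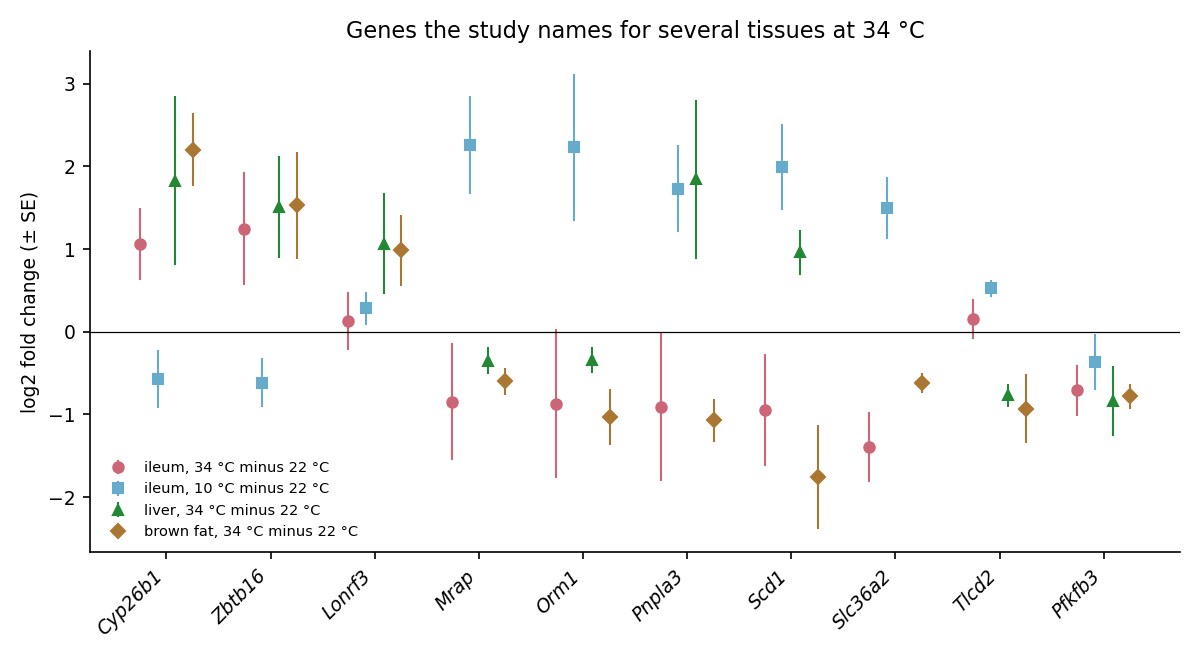
log2 fold change (± SE) of the 10 genes the study names for several tissues, in ileum, liver and brown fat at 34 °C and in ileum at 10 °C, each against its own 22 °C group; genes not tested in a tissue have no point. Cyp26b1 has values of 1.06 in ileum, 1.83 in liver and 2.2 in brown fat at 34 °C, and Slc36a2 has ileum values of −1.39 at 34 °C and 1.5 at 10 °C.

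The change of ileum at 34 °C was set against that at 10 °C, each relative to its own 22 °C group, in 1 fit of the difference over 13378 genes. The experiments differed in supplier, age, library kit and sequencing site, which their own 22 °C groups carry too. They also differed in duration and in the stepwise cooling before 10 °C. No gene differed at an adjusted p under 0.05 in edgeR's quasi-likelihood test (lowest 0.106), and 1652 had an unadjusted p of at most 0.05. Without pool 1 at 34 °C 2 genes differed (0.0149%), Pi4k2a, a lipid kinase gene, and Sprr1a, a gene of a cornified envelope protein. Sprr1a stood at 9.96, 11.8 and 14 CPM at 22 °C and at 11.7, 2.86 and 2.53 CPM at 34 °C, and pool 1 lay inside the 22 °C range. For Slc36a2, which fell at 34 °C and had a log2 change of 1.5 at 10 °C, the difference was −2.90 and its adjusted p 0.145.

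The 34 °C change of ileum was compared with those of liver, brain and brown fat in the same way, over 15044 genes. It differed from that of liver in 26 genes (0.173%), 18 of them with the higher log2 change in ileum, from that of brain in 1 (0.00665%) and from that of brown fat in 3060 (20.3%). Without pool 1 at 34 °C these counts were 455, 196 and 3388, and without pool 2 at 34 °C 5, 0 and 2391. Moxd1, a monooxygenase-like gene named after its values were seen, had the lowest adjusted p against liver: it stood at 20.4, 6.29 and 13.7 CPM in liver at 22 °C and at 0, 0.0438 and 0.131 CPM at 34 °C, while ileum had 1.64, 2.42 and 0.54 CPM at 22 °C and 2.18, 4.53 and 1.8 CPM at 34 °C. The difference of the log2 changes was 8.76 (SE 0.96). The gene that differed from brain was Zfp354a, at 8.94, 9.32 and 9.34 CPM in brain at 22 °C and 10.5, 9.13 and 8.6 CPM at 34 °C, with a difference of 1.52 (SE 0.215, adjusted p = 0.0135 by edgeR). Zfp354a thus rose in ileum and not detectably in brain, and in liver it stood at 3.1, 2.97 and 3.12 CPM at 22 °C and 4.92, 4.44 and 4.43 CPM at 34 °C. Against brown fat 1766 genes had the higher change in ileum and 1294 the lower with TMM scaling, but 526 and 3555 with library size alone, which shifted the median difference of all genes by −0.317, so no direction is given for that set.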

How the data were processed

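RNA of ileum pools (TruSeq stranded mRNA, single reads of HiSeq 4000) was aligned and counted per gene by the authors, and whole-number raw counts were deposited. The labels' processing notes name STAR 2.5.3a, HTSeq 0.6p1 and build mm10; the paper's methods name other versions. The deposited counts of the 10 °C experiment came from another kit and site.

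Counts were tested with edgeR 4.0.16 (quasi-likelihood, TMM scaling, R 4.3.3) on genes with an average log2 CPM above 0, over the 6 ileum libraries. Calls used the study's limits on the p before adjustment (at most 0.05) and on the fold (above 1.5), since no gene passed the adjusted limit in that test; Benjamini-Hochberg values are given beside them. Differences between tissues or experiments were interaction terms with the libraries of both; 20195 genes were shared between the experiments' tables. Tested on simulated data with the real means and depths of the 34 °C ileum comparison (13023 genes), the calls recovered 91% of genes changed 2-fold and 100% of those changed 4-fold, and an adjusted p under 0.05 recovered 58% and 96%. Changes were given only to genes with a mean above 2 CPM, and each gene varied on its own. These shares therefore do not cover weaker genes or shifts that many genes of a pool have in common. Alternatives were edgeR's exact test, DESeq2 1.42.0, limma voom 3.58.1, other scalings and filters, and leaving out each library. Library totals were 41186780 to 42726231 counts in the 22 °C pools and in pool 1 at 34 °C. They were higher, at 46321787 and 52402604, in pools 2 and 3 at 34 °C, and the part of depth was not tested. Of 23393 symbols 23031 were placed on GRCm38 (1280 through older symbols), for coordinates only. No columns were unmatched, and no duplicated libraries were found.

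The comparison and gene lists were chosen with earlier results of these data known. Named genes were: up to 10 in each direction with the largest change at an adjusted p under 0.05, or else among called genes without overlap; called members of lowest p, and examples not called, from each list; genes in which pool 1 at 34 °C lay furthest from the others; genes the study names; and genes of lowest p without that pool. Other names are marked as chosen after their values were seen. Some genes are not reported here.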

Additional observations from a re-analysis of the deposited data

Results flagged for a closer look

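The change at 34 °C differed between ileum and other tissues, by a test of the difference itself, in 26 genes against liver, 1 against brain and 3060 against brown fat. Of the genes named here, 4 were among those that differed from liver. For Moxd1 the difference of the log2 changes, ileum minus liver, was 8.76 (SE 0.96, adjusted p = 0.000301 by edgeR), and it fell in liver. Dio1, the deiodinase that activates thyroid hormone in liver, stood at 163, 167 and 197 CPM in liver at 22 °C and at 11.8, 5.03 and 20.7 CPM at 34 °C, and at 73.2, 80.1 and 96.3 CPM and 48.8, 68.5 and 30.8 CPM in ileum, a difference of 3.08 (SE 0.553, adjusted p = 0.0498). It was lower at 34 °C in both tissues, by less in ileum.

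Slc30a1, a zinc exporter, stood at 109, 107 and 147 CPM in ileum at 22 °C and at 94.8, 61.9 and 70 CPM at 34 °C, while in liver it stood at 34.1, 28.3 and 32.8 CPM and at 40.4, 39.9 and 38.2 CPM. The difference was −0.98 (SE 0.179, adjusted p = 0.0332). Ddhd2, a lipase gene, went from 79, 83.4 and 70.3 CPM to 92.5, 131 and 142 CPM in ileum and from 27.5, 25 and 26.1 CPM to 20, 18.6 and 24.4 CPM in liver, a difference of 1.0 (SE 0.191, adjusted p = 0.0426). In both genes pool 1 was the ileum pool at 34 °C nearest to the 22 °C pools. Zfp354a was the 1 gene that differed from brain, by 1.52.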

How the results depend on the processing

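With an adjusted p under 0.05 both counts were 0 in edgeR's quasi-likelihood test, where 1011 genes had an unadjusted p of at most 0.05; edgeR's exact test called 1 gene higher and 4 lower and DESeq2 9 and 15. Without a filter beyond 1 count 340 genes were higher and 327 lower. The lower count was 292 with edgeR's exact test, 336 with DESeq2 and 334 with limma voom; the other scalings, filters and fits changed neither count by over 1.5 times. Leaving out 1 library gave 63 to 437 genes higher and 64 to 659 lower. The difference from the 10 °C change was found in 2 genes without pool 1 at 34 °C. That from liver was found in 455 genes without pool 1 and 5 without pool 2 at 34 °C, that from brain in 196 and 0; the fits without pool 2 of these contrasts, and the counts of each list without single pools, were chosen after seeing the data. The cause of these shifts was not tested. Of 124 genes followed through every setting, 38 kept the same call in all. Direction turned in 5 values: Lonrf3 (log2 −0.16 without pool 1 at 22 °C and −0.13 without pool 1 at 34 °C, from −0.16 to 0.42 over all libraries left out), and, without pool 2 at 34 °C, Tlcd2 (−0.06, up to 0.34 over the others), Fabp6 (0.02, down to −0.49) and Adh6a (−0.79, up to 3.77). No paired analysis was possible because the columns of the ileum pools carry numbers that the labels do not tie to mice, cages or pools of the other temperature. How depth limits the calls was not tested.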

Other observations

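Further epithelial genes turned on the same pools. Cyp3a13, a P450 that was called higher with every pool, stood at 437, 413 and 324 CPM at 22 °C and at 411, 860 and 777 CPM at 34 °C. Aqp3, a water and glycerol channel, stood at 2.92, 6.8 and 3.78 CPM at 22 °C and at 5.52, 39.5 and 14.9 CPM at 34 °C, and Kcnj13, a potassium channel of epithelia, at 0.855, 1.32 and 0.282 CPM and at 0.409, 5.95 and 6.32 CPM. Both channels were called higher with every pool, and pool 1 at 34 °C lay inside the 22 °C range in both.
Gcnt1, an enzyme of mucin O-glycans that lymphocytes also express, went from 70.5, 29.8 and 51 CPM to 29.3, 10.4 and 22.8 CPM (log2 −1.28, SE 0.438), with no overlap between the groups. Among enteric neuron markers Elavl4 was called higher, at 1.31, 1.41 and 0.493 CPM at 22 °C and 2.11, 3.12 and 1.7 CPM at 34 °C, while summed smooth muscle markers were 3510, 3380 and 1590 CPM at 22 °C and 3000, 4070 and 2690 CPM at 34 °C, lowest in pool 3 at 22 °C. Their part in the Elavl4 difference was not tested.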
